A study of Mus musculus with 18 samples.

Results

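The mouse precursors mmu-mir-151, mmu-mir-342 and mmu-mir-590 (here mir-151, mir-342 and mir-590) are single miRNA hairpins that lie in introns of protein-coding genes, and they were selected for description on their rise from low levels in both knockouts of this study. They make up 3 of the 1006 miRNA precursors in the deposited counts, and all 3 were among the 273 precursors that passed the filter on low counts. The study sequenced small RNA of Baf3 cells, a pro-B line of the mouse that depends on interleukin-3, in 18 libraries. All cells carried fluorescent reporters for mutated miR-15a and miR-16 and were transduced with Cas9 and a guide RNA under puromycin selection. The 3 genotypes were Rag1_KO, the control whose target gene has no role in miRNA production, a knockout of Safb1 and Safb2 (Safb1 KO, Safb2 KO, here SAFB), and Erh KO (here ERH). The knockout cells were polyclonal populations sorted for loss of repression of the dsRed miR-15a reporter and regrown, so both knockouts share a selection step on a miRNA readout. The labels do not say whether or how the control populations were sorted. Each genotype had 2 guides, each guide population gave 3 libraries in 3 labelled batches, and the libraries of a population are not stated to be separate cultures, so p-values may measure technical spread only.

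A miRNA hairpin in an intron is cut out of the host gene's primary transcript by the Microprocessor, the complex of the RNase Drosha and its partner DGCR8, and Dicer then releases the mature strands. SAFB proteins and ERH are accessory factors of the Microprocessor that help it process weak hairpins next to strong ones in the same transcript, which is called cluster assistance. Ptk2, the host of mir-151, encodes focal adhesion kinase. Evl, the host of mir-342, encodes an actin regulator of the Ena/VASP family, and miR-342 is known from blood cells. Eif4h, the host of mir-590, encodes a cofactor of the RNA helicase eIF4A in translation initiation. Host transcripts were not measured in these small RNA libraries.

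None of the hairpins placed by position had a miRNA neighbour. In the GENCODE M21 annotation of GRCm38, mir-151 lay at chr15:73254815-73254882 on the minus strand, in a Ptk2 intron of 14556 bp, 2151 bp past the upstream exon. This is intron 22 or intron 23, depending on the Ptk2 transcript. The mir-342 hairpin lay at chr12:108658620-108658718 on the plus strand, in an Evl intron of 20189 bp (intron 3, or intron 4 in 1 transcript), 5520 bp past the upstream exon and 14570 bp before the next. No other miRNA gene lay within 10 kb or 50 kb of either hairpin on that strand. The position of mir-590 was not analysed here, and its host gene Eif4h spans chr5:134619721-134639490 on the minus strand.

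The mir-342 sequences are shown because the deposited entry sums reads of both arms of the hairpin, so the values that follow do not say which mature strand changed. In the hairpin the capitals mark the arms, and in the mature strands they mark the seed, bases 2 to 8, which pairs with target mRNAs. The sequences are from RefSeq on GRCm38.p6, and each miR-342 seed was held by 1 of the 1738 mature strands in that table.
mir-342 hairpin: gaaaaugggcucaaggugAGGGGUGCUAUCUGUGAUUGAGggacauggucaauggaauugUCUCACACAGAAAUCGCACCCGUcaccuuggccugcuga
miR-342-5p: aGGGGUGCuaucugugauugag
miR-342-3p: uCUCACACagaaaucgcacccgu

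In control cells all 3 miRNAs were scarce, at 4 to 30 reads per library. Levels are given as CPM, counts relative to library size, scaled by the trimmed mean of M-values (TMM). The control level of mir-151 was 6.67 ± 3.13 CPM (SD, n = 6), from 1.34 through a median of 7.42 to 9.71. Control libraries held mir-342 at 5.08 ± 1.97 CPM (SD, n = 6), from 2.68 through 4.51 to 8.03, and mir-590 at 4.91 ± 2.06 CPM (SD, n = 6), from 1.44 through 5.44 to 7.41. These levels rest on 5 to 30 reads of mir-151, 10 to 26 of mir-342 and 4 to 24 of mir-590 per library, with sums over the 6 control libraries of 124, 95 and 96 counts. By mean control level the 3 stood 182nd, 193rd and 194th of the 273 tested miRNAs. The coefficient of variation in control was 46.8%, 38.7% and 41.9%, where read counting by itself gives 22.0%, 25.1% and 25%. For mir-151 it was 24.8% without control guide 2 batch 3, and for mir-590 it was 23.2% without control guide 2 batch 1, where counting gives 20.5% and 23.3%.

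In the SAFB knockout each of the 3 was at roughly an order of magnitude above control. mir-151 was at 60.0 ± 16.01 CPM (SD, n = 6), from 42.1 through a median of 59.4 to 85.5, and its lowest SAFB library stood 4.34-fold above its highest control library. For mir-342 the SAFB level was 48.2 ± 17.6 CPM (SD, n = 6), from 29.2 through 45.3 to 74.5. For mir-590 it was 47.2 ± 29.2 CPM (SD, n = 6), from 28.1 through 39.1 to 105.1. None of the 3 overlapped between control and SAFB libraries, which follows from how they were chosen. Of all tested miRNAs, 19.4% lay wholly above and 17.2% wholly below control in SAFB in this sense. The fitted log2 fold changes over control were 3.18 (SE 0.27), 3.25 (SE 0.28) and 3.23 (SE 0.33) for mir-151, mir-342 and mir-590, or 9.07-, 9.52- and 9.39-fold. Of all tested miRNAs, edgeR called 30.8% higher and 25.3% lower in SAFB than in control at an adjusted p under 0.05; this contrast chose the members, so nothing is read from their place in it.

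In the ERH knockout the levels were higher again. mir-151 was at 142.8 ± 27.6 CPM (SD, n = 6), from 108.1 through a median of 139.6 to 189.1, and mir-342 at 112.4 ± 32.8 CPM (SD, n = 6), from 74.3 through a median of 102.1 to 155.5. For mir-590 the ERH level was 116.7 ± 17.5 CPM (SD, n = 6), from 92.1 through 116.4 to 137.2. All ERH libraries lay far above all control libraries, with a gap of 11.1-fold for mir-151, 9.25-fold for mir-342 and 12.4-fold for mir-590 between the nearest pair. Among all tested miRNAs 19.4% lay wholly above and 17.9% wholly below control in ERH. The log2 fold changes over control were 4.43 (SE 0.27), 4.47 (SE 0.29) and 4.54 (SE 0.33), or 21.6-, 22.2- and 23.2-fold. Over all tested miRNAs 26.4% were called higher and 27.5% lower in ERH than in control, and again the contrast chose the members. Both knockouts were compared with the same 6 control libraries, so the fold changes share the error of the low control values. In order of mean level mir-151, mir-342 and mir-590 moved to places 123, 131 and 132 of 273 in SAFB, and to 106, 118 and 117 in ERH.

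**Figure D1:**
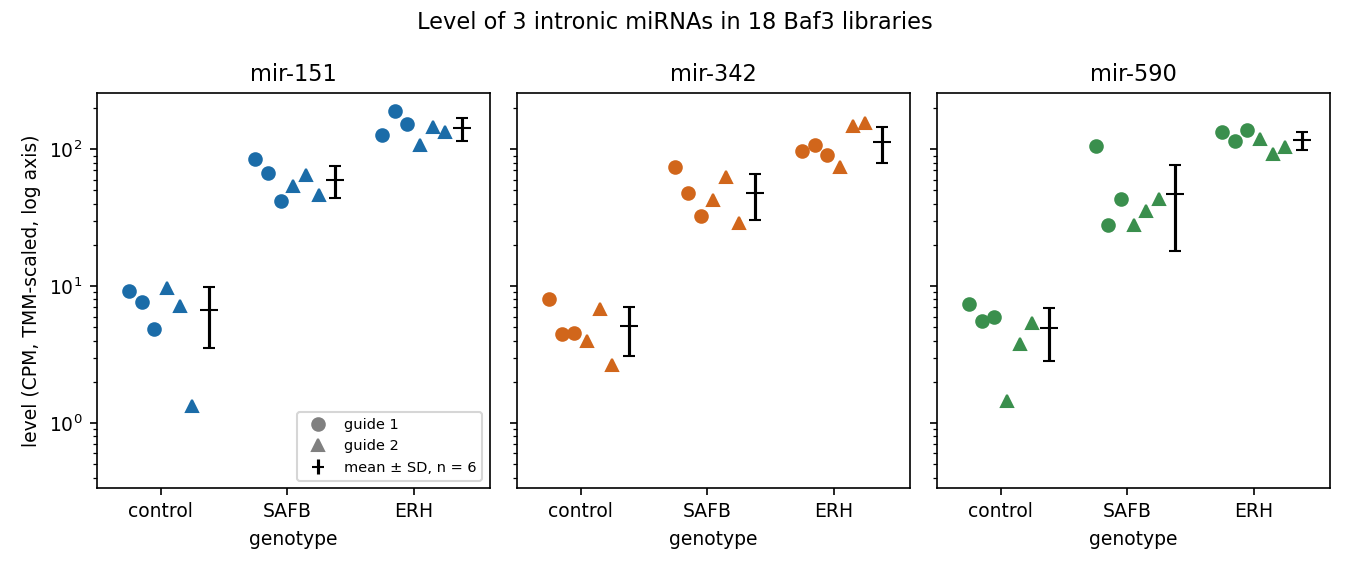
Level of mir-151, mir-342 and mir-590 in each of the 18 libraries, in CPM on a log axis, by genotype, with circles for guide 1, triangles for guide 2 and bars for the mean ± SD of 6 libraries. The 3 genotypes form rising steps for each miRNA, with control at 1.34 to 9.71 CPM, and the SAFB library that stands apart for mir-590 is at 105.1 CPM.

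The direct contrast of the knockouts was not used to choose the members, and all 3 were higher in ERH than in SAFB. For mir-151 the log2 difference was 1.25 (SE 0.22, 2.38-fold, edgeR adjusted p = 8.8e-05), and every ERH library was above every SAFB library, as for 14.3% of all tested miRNAs, while 6.23% lay wholly below. For mir-342 it was 1.22 (SE 0.23, 2.33-fold, edgeR adjusted p = 0.00015). There the groups touched, with the highest SAFB library at 74.5 CPM and the lowest ERH library at 74.3 CPM, and 35 of the 36 pairs of libraries were in order. For mir-590 the log2 difference was 1.31 (SE 0.26, 2.48-fold, edgeR adjusted p = 0.00033). The groups overlapped through 1 SAFB library at 105.1 CPM, which stood above 2 ERH libraries, and 34 of 36 pairs were in order. These 3 calls stand beside a background of 23.8% of tested miRNAs called higher and 15.8% called lower in ERH than in SAFB, with a median log2 difference of 0.042 over all tested. Those shares are 65 and 43 miRNAs, and they became 115 and 8 by total counts and 111 and 1 by spike-ins. By size of the difference the members stood at places 32, 35 and 29 of 273.

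**Figure D2:**
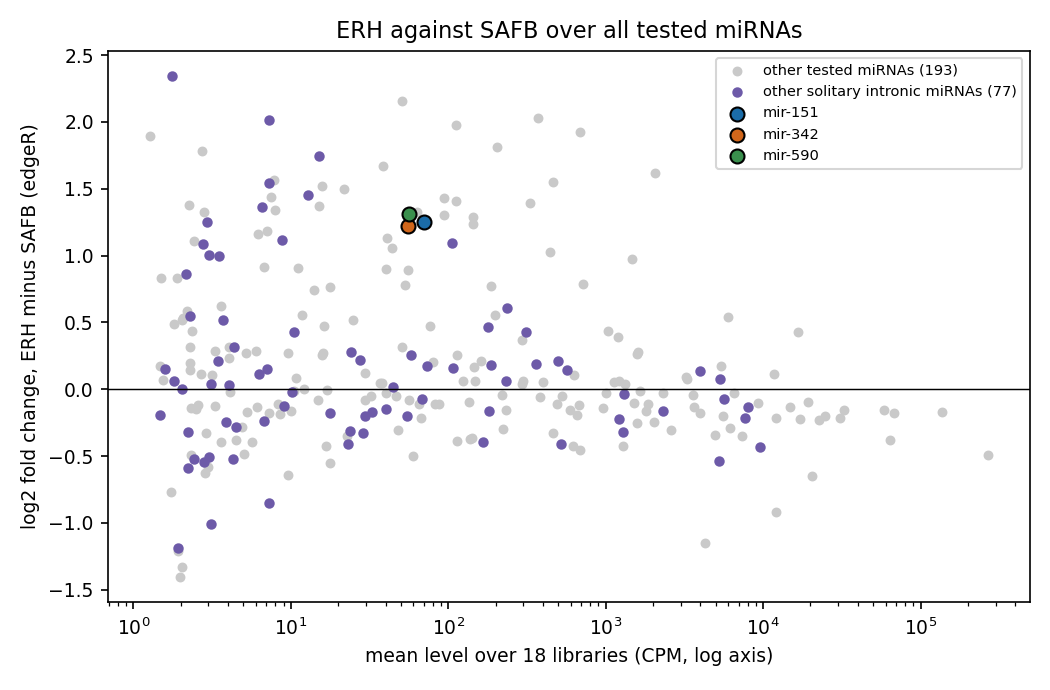
Log2 difference of ERH minus SAFB from the edgeR fit against the mean level over 18 libraries in CPM on a log axis, for 193 other tested miRNAs in grey, 77 other solitary intronic miRNAs in purple and the 3 members in colour. The members lie together, at 1.22 to 1.31 and 55.2 to 69.8 CPM, above the zero line.

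Guide populations and batches gave the same direction. In all 12 comparisons of a guide population of ERH with one of SAFB, 4 for each miRNA, the ERH population had the higher mean, by 0.83 to 1.86 on the log2 scale. With the 3 libraries of each population summed first, so that a genotype had 2 values, the differences were 1.22, 1.20 and 1.30, with edgeR adjusted p-values of 0.0003, 0.00057 and 0.0022. Within batches 1, 2 and 3 the difference for mir-151 was 0.78, 1.31 and 1.69. It was 0.59, 1.20 and 1.94 for mir-342 and 1.20, 1.69 and 1.45 for mir-590. Batch 1 gave the smallest difference of each miRNA. That batch holds the SAFB guide 1 library in which mir-151, mir-342 and mir-590 each had their highest SAFB level, at 85.5, 74.5 and 105.1 CPM. Without this library the differences were 1.37, 1.39 and 1.70, with edgeR adjusted p-values of 3.7e-05, 3.3e-05 and 4.9e-07. Scaled to the spike-in RNAs, the differences were 1.78, 1.79 and 1.75, where the median of all tested miRNAs was 0.57.

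Between the guide populations of a genotype no member passed the test under TMM scaling. Under spike-in scaling mir-342 did in ERH, at 0.94 (edgeR adjusted p = 0.029), and 4 of the 9 differences turned sign. Guide 2 minus guide 1 in SAFB was -0.24 (SE 0.32) for mir-151, -0.21 (SE 0.33) for mir-342 and -0.73 (SE 0.34) for mir-590 on the log2 scale. In ERH it was -0.28 (SE 0.31), 0.36 (SE 0.31) and -0.30 (SE 0.32), so mir-342 was the member with the higher mean in guide 2. In control it was -0.34 (SE 0.46), -0.38 (SE 0.49) and -0.78 (SE 0.51). The edgeR adjusted p-values of these 9 differences were 0.79 to 0.99. Over all tested miRNAs edgeR called 0% between the control guides (0 of 273, with 7 at an unadjusted p under 0.05), 0% between the SAFB guides (0 of 273, with 10) and 0.366% between the ERH guides (1 of 273, with 18). The member with the lowest unadjusted p was mir-590 between the SAFB guides, at 0.043 before and 0.79 after edgeR's adjustment. The population means behind it were 58.9 ± 40.8 CPM (SD, n = 3) for guide 1 and 35.5 ± 7.41 CPM (SD, n = 3) for guide 2. Without SAFB guide 1 batch 1 the difference was -0.011 in place of -0.73.

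The rise of the 3 miRNAs was then set side by side in each library, as fold over the mean of the 6 control libraries. In the SAFB guide 1 libraries of batches 1, 2 and 3, mir-151 stood at 12.8-, 10.1- and 6.31-fold, mir-342 at 14.7-, 9.42- and 6.36-fold, and mir-590 at 21.4-, 5.72- and 8.88-fold. In the SAFB guide 2 libraries mir-151 stood at 8.05-, 9.76- and 6.91-fold, mir-342 at 8.41-, 12.3- and 5.74-fold, and mir-590 at 5.75-, 7.16- and 8.76-fold. mir-151 and mir-342 thus went up and down together from library to library, while mir-590 kept another order: it was the highest of the 3 in batches 1 and 3 of guide 1 and in batch 3 of guide 2, and the lowest in the other SAFB libraries.

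In ERH, too, the order of the members changed from library to library. In ERH guide 1 libraries of batches 1, 2 and 3, mir-151 stood at 19.0-, 28.3- and 23.1-fold, mir-342 at 19.1-, 21.1- and 17.96-fold, and mir-590 at 27.4-, 23.4- and 27.95-fold. In ERH guide 2 libraries mir-151 stood at 16.2-, 21.7- and 20.1-fold, mir-342 at 14.6-, 29.3- and 30.6-fold, and mir-590 at 24.1-, 18.8- and 21.1-fold. mir-342 had the highest fold in batches 2 and 3 of guide 2 and the lowest in batches 2 and 3 of guide 1 and batch 1 of guide 2. Within a library the highest of the 3 folds was 1.41 to 1.77 times the lowest in SAFB and 1.35 to 1.65 times in ERH, with medians of 1.60 and 1.54. In control libraries, where few reads stand behind each value, the same ratio ran from 1.14 to 5.44.

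**Figure D3:**
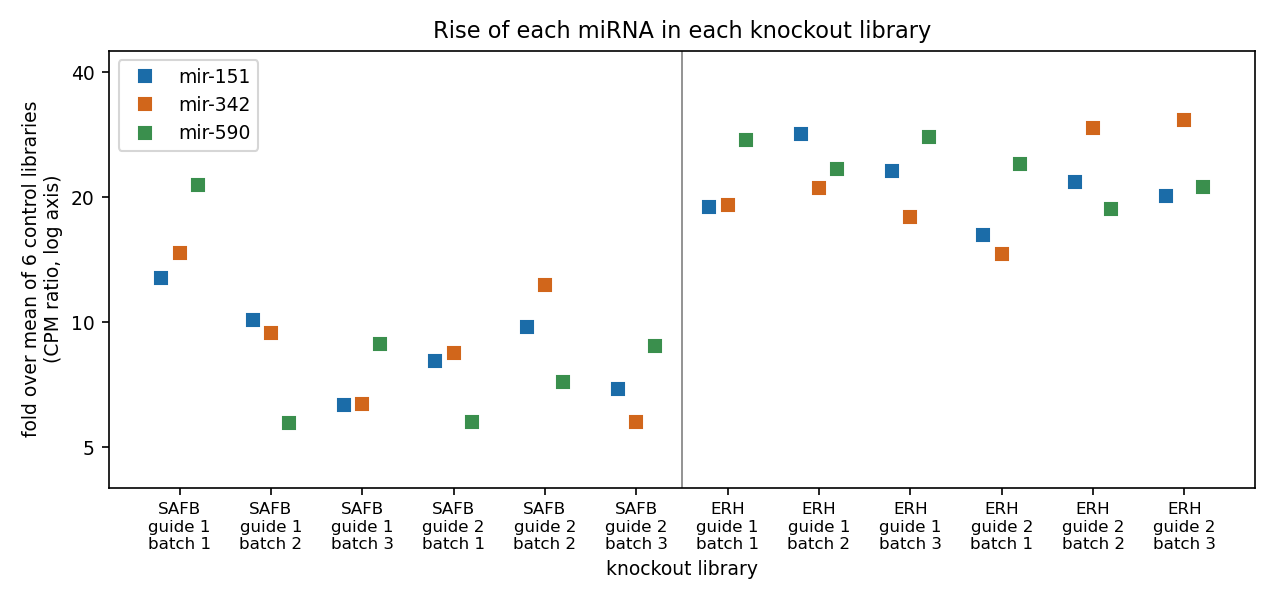
Fold of mir-151, mir-342 and mir-590 over the mean of the 6 control libraries, as a CPM ratio on a log axis, in each of the 12 knockout libraries. The 3 squares of a library lie within 1.77 times of each other in SAFB and within 1.65 times in ERH, and mir-590 at 21.4-fold in SAFB guide 1 batch 1 reaches the range of the ERH libraries.

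Whether the members kept their proportions between the knockouts was tested on ratios of counts within a library, which need no scaling between libraries. The log2 ratio of mir-342 to mir-151 was -0.35 ± 0.21 (SD, n = 6) in SAFB and -0.37 ± 0.42 (SD, n = 6) in ERH. The difference was -0.020 (95% interval -0.45 to 0.42, exact two-sided permutation p = 0.92, 0.92 adjusted over 3 pairs). For mir-590 over mir-151 the ratio was -0.47 ± 0.63 (SD, n = 6) in SAFB and -0.28 ± 0.36 (SD, n = 6) in ERH, a difference of 0.19 (-0.50 to 0.89, exact permutation p = 0.52, adjusted 0.85). For mir-590 over mir-342 it was -0.12 ± 0.68 and 0.091 ± 0.60 (SD, n = 6 each), a difference of 0.21 (-0.59 to 1.12, exact permutation p = 0.57, adjusted 0.85). No ratio passed the test, and the intervals still admit a change in proportion of 0.45 on the log2 scale for the first pair and of 0.89 and 1.12 for the pairs with mir-590. Within batches the differences of mir-590 over mir-342 were 0.62, 0.50 and -0.49, those of mir-590 over mir-151 were 0.42, 0.39 and -0.24, and those of mir-342 over mir-151 were -0.20, -0.11 and 0.25, so each pair changed sign between batches. Against control, as a description, the mean ratios of the 3 pairs in the order above differed by -0.11, -0.11 and 0.0036 in SAFB and by -0.13, 0.082 and 0.21 in ERH.

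**Figure D4:**
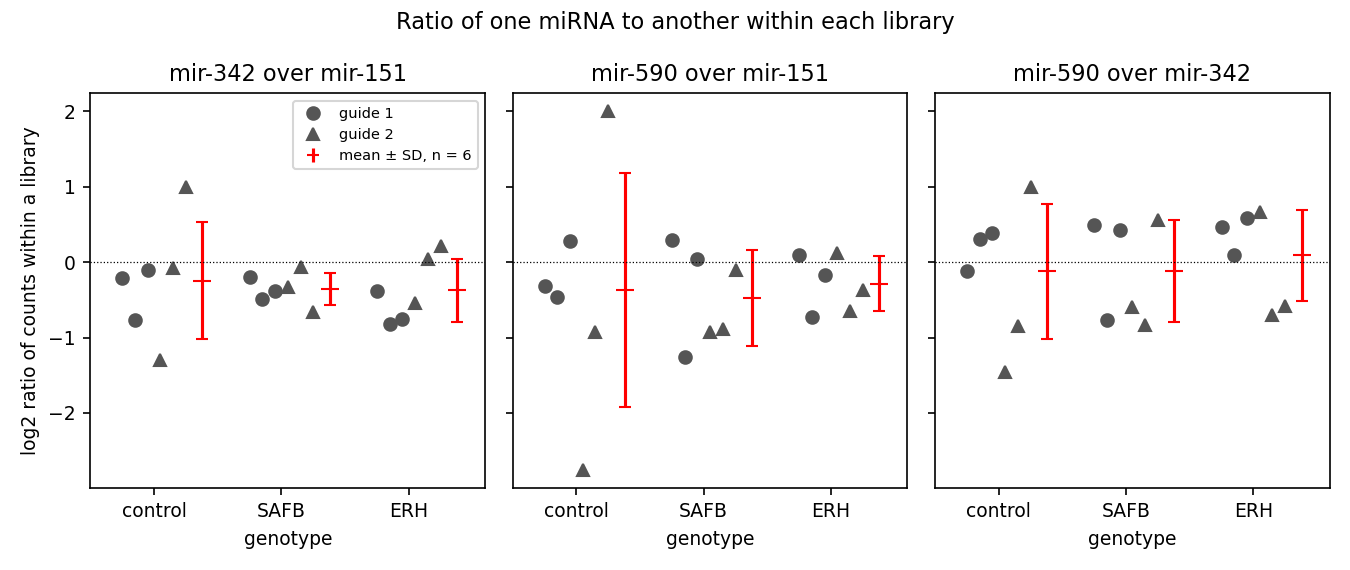
Log2 ratio of the counts of one member to another within each library, by genotype, with circles for guide 1, triangles for guide 2 and red bars for the mean ± SD of 6 libraries. The SAFB and ERH means of each pair differ by 0.21 or less, and the control libraries spread most for mir-590 over mir-151, at an SD of 1.55.

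The spread between libraries of a genotype was larger than read counting gives in each knockout. For mir-590 the coefficient of variation was 61.8% in SAFB and 14.96% in ERH, where counting gives 7.58% and 4.88%, and the SAFB value was 21.3% without guide 1 batch 1, where counting gives 8.63%. For mir-151 it was 26.7% and 19.3%, where counting gives 6.69% and 4.44%, and for mir-342 it was 36.4% and 29.2%, where counting gives 7.50% and 4.98%. After the mean of each guide population was taken out, mir-151 and mir-342 deviated together, with a Pearson r of 0.66 over 18 libraries. For mir-590 the r was -0.33 to mir-151 and 0.13 to mir-342. Within the 6 libraries of a genotype these were -0.71 and 0.0088 in control, 0.38 and 0.39 in SAFB, and -0.87 and -0.77 in ERH, so the sign was not the same in all genotypes. These correlations are descriptions, and the points share library depth and scaling.

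Among miRNAs at 100 CPM or more in some genotype, the 3 most like each member were not solitary intronic hairpins. Likeness was the Pearson r of log2 CPM over the 18 libraries, among the 122 tested miRNAs with at least 100 CPM in some genotype. Solitary intronic miRNAs below this limit were not compared. For mir-151 the nearest were mir-148a, mir-196b and mir-182, with r of 0.979 each; for mir-342 they were mir-182 (0.989), mir-196a (0.984) and mir-125a (0.983); and for mir-590 they were mir-196a (0.971), mir-196b (0.969) and mir-148a (0.967). mir-196a and mir-196b lie in Hox loci, have close sequences and can share reads. A high r here follows largely from 3 genotype steps of similar size, and 14 of the 122 exceeded 0.9 with each member, the other members among them. The ERH and SAFB libraries entered this r. A similar difference between ERH and SAFB thus follows from the choice of these nearest miRNAs and is given as a description. Their log2 differences were 1.40 for mir-148a, 1.32 for mir-182, 1.41 for mir-196a, 1.29 for mir-196b and 1.24 for mir-125a. The r between members themselves was 0.976 for mir-151 with mir-342, 0.918 for mir-151 with mir-590 and 0.948 for mir-342 with mir-590. The guide arms of these nearest miRNAs are shown to compare seeds, in capitals: miR-196a and miR-196b share one, and none of the seeds is that of a miR-342 arm.
miR-148a-3p: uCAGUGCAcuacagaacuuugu
miR-182-5p: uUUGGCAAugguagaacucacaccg
miR-196a-5p: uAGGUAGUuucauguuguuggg
miR-196b-5p: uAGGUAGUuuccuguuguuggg
miR-125a-5p: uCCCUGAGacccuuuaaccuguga

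Other single intronic hairpins were called higher against control about as often as tested miRNAs at large under TMM scaling. By annotation, 320 other precursors were single-copy, intronic on the host's strand and without a miRNA gene within 10 kb, and 77 of them were tested. In SAFB against control 25 of the 77 were called higher (32.5%, against 30.8% of all tested), 15 lower (19.5%, against 25.3%) and 37 were not called, with a median log2 fold change of 0.11 beside 0.0083 over all tested. In ERH against control 20 were called higher (26.0%, against 26.4%), 13 lower (16.9%, against 27.5%) and 44 were not called, with a median of 0.080 beside -0.061. This split moves with the scaling. In ERH it was 36 higher and 4 lower by total counts (46.8% and 5.19%, against 39.6% and 12.1% of all tested). By spike-ins it was 20 and 1 (26.0% and 1.30%, against 26.4% and 6.96%), and by DESeq2 size factors 26 and 11 (33.8% and 14.3%, against 29.7% and 23.8%). In SAFB it was 14 and 11 by spike-ins (18.2% and 14.3%, against 16.1% and 21.2%). In ERH against SAFB 15 were called higher (19.5%, against 23.8%) and 10 lower (13.0%, against 15.8%). Among the 77, 8 were called higher in SAFB by more than 3 on the log2 scale, among 25 of all tested, and 10 in ERH, among 36.

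Of the solitary intronic miRNAs at 100 CPM or more in some genotype, mir-10b rose most in each knockout. It is annotated in an intron of Hoxd4, a developmental transcription factor gene, and reached this limit in ERH only. It went from 8.27 ± 3.78 CPM in control to 98.0 ± 46.3 in the SAFB and 208.8 ± 34.1 in the ERH libraries (SD, n = 6 each). Its log2 fold changes were 3.59 (SE 0.30, edgeR adjusted p = 4.4e-10) and 4.69 (SE 0.30, edgeR adjusted p = 3.1e-12), and its near-identical relative mir-10a can share its reads. The others named by this rule moved less. mir-28a in Lpp, whose mature strand resembles that of miR-151, rose by 0.91 (SE 0.096, edgeR adjusted p = 2.2e-08) in SAFB and by 0.75 (SE 0.095, edgeR adjusted p = 4.2e-07) in ERH. Between the knockouts it was not called, at -0.16 (SE 0.094, edgeR adjusted p = 0.19), and the sign turned to 0.10 by total counts and 0.39 by spike-ins, again not called. mir-185 in Tango2 rose by 0.53 in SAFB (edgeR adjusted p = 5.5e-07), and by 0.28 under spike-in scaling, not called (edgeR adjusted p = 0.34). mir-423 in Nsrp1 rose by 0.46 in ERH (edgeR adjusted p = 0.0035). By total counts and by spike-ins the rise of mir-423 in ERH was 0.78 and 0.75 (edgeR adjusted p = 5.5e-05 and 0.0082).

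Other hairpins of the same kind fell under TMM scaling, and those of the 3 named in ERH were not called by spike-ins. mir-6539 in Dock5 changed by -1.02 in SAFB and -0.84 in ERH (edgeR adjusted p = 3.7e-07 and 5.1e-06). In SAFB mir-339 changed by -0.41 and mir-32 in Tmem245 by -0.38 (edgeR adjusted p = 0.0011 and 0.00048). By spike-ins mir-6539, mir-339 and mir-32 stood at -1.30, -0.68 and -0.63 in SAFB, each still called (edgeR adjusted p = 2.9e-06, 0.016 and 0.021). In ERH mir-101b in Rcl1 changed by -0.60 and mir-598 in Xkr6 by -0.44 (edgeR adjusted p = 1.5e-08 and 2.7e-05). By spike-ins mir-6539, mir-101b and mir-598 stood at -0.58, -0.32 and -0.15 in ERH (edgeR adjusted p = 0.065, 0.29 and 0.72), and by total counts mir-598 at -0.13 (edgeR adjusted p = 0.16). mir-21a, an abundant miRNA whose seed is also that of an arm of miR-590, was called higher in neither knockout: it was at 71092 CPM in control, 68003 in SAFB and 52194 in ERH. Its log2 change was -0.064 in SAFB (edgeR adjusted p = 0.46) and -0.45 in ERH (edgeR adjusted p = 9.9e-06). By spike-ins the order was the other way, at -0.34 in SAFB and -0.18 in ERH, neither called (edgeR adjusted p = 0.21 and 0.60).

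Totals were 2699323 to 4470073 miRNA counts per library, and the TMM factors were 0.888 to 0.946 in control, 0.914 to 0.985 in SAFB and 1.07 to 1.20 in ERH. Markers of blood cells, led by mir-142a, summed to 147708 to 174246 CPM in control, 153227 to 170760 in SAFB and 124501 to 157392 in ERH. This sum is mostly mir-142a, and the other 4 markers differed among themselves: mean mir-155 was at 1754, 1609 and 1350 CPM, mir-223 at 9611, 17414 and 9214 CPM, mir-181a at 3114, 4662 and 4119, and mir-150 at 19.3, 4.91 and 9.29 in control, SAFB and ERH. A list of 19 miRNAs of other cell types summed to 6266 to 6928, 5765 to 6654 and 5286 to 6388 CPM. That sum is mostly mir-126a, at a mean of 4333, 3485 and 3179 CPM, and mir-128, at 2026, 2476 and 2427 CPM. Of this list mir-206 of muscle and mir-294 of pluripotent cells were at 0 in every library, and mir-124 of neurons and mir-133a of muscle were at 0 in control. mir-124 and mir-133a had means of 0.23 and 0.19 CPM in SAFB and 0.51 and 0.65 in ERH. Some members rose in steps from control through SAFB to ERH, with mean mir-375 at 0.28, 2.23 and 4.80 CPM and mir-122 at 6.78, 11.6 and 17.1. Others fell, such as mir-302a at 2.65, 0.99 and 0.23 CPM. Of the 10 that could be tested, 5 were called higher and 1 lower in SAFB than in control, 3 higher and 1 lower in ERH than in control, and 0 higher and 2 lower in ERH than in SAFB by edgeR, where the shares of all tested were 30.8% and 25.3%, 26.4% and 27.5%, and 23.8% and 15.8%. Their part in the rise of the members was not tested.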

How the data were processed

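The authors deposited whole-number read counts per miRNA precursor, not normalized, with 4 spike-in RNAs. SAMtools is named in the submitters' processing notes; the aligner, counting program, genome build and handling of reads that match several precursors are not given in the sources used here. Both arms and all gene copies share an entry. The precision stated from read numbers holds counting error alone and takes reads as independent. PCR reads are not independent molecules, so the true error can be larger.

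Spike-ins (0.165% to 0.366% of counts) were kept out of library sizes. Precursors kept by filterByExpr (minimum count 10, by population) were fitted with edgeR 4.0.16 (quasi-likelihood test, TMM, 1 mean per genotype over 18 libraries) in R 4.3.3 with limma 3.58.1, and adjusted over all 273 by Benjamini-Hochberg at 0.05. Guides were compared in a fit with 1 mean per population. Log2 CPM used a prior count of 2. Ratios between members were compared by exact permutation over 924 arrangements, where the smallest possible p is 0.0022. The steps were tested on simulated data. DESeq2 1.42.0, other scalings, filters, a replicate block and left-out libraries and populations were alternatives.

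Labels pair libraries by batch; same-batch deviations correlated with a mean r of 0.028 (45 pairs), and other pairs with -0.014 (90 pairs). Libraries of a population differed by a chi-square per degree of freedom of 27.5 to 157.1, above sampling noise, so none was taken for a repeat deposit of the same library; separate cultures and repeat preparations cannot be told apart by this. Positions are from GENCODE M21, in which 931 of 1006 precursor names matched; RefSeq sequences matched 1 of 3 members.

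The members and all lists were chosen with earlier results of these data known. Named miRNAs were the members, mir-21a and mir-28a, the 3 solitary intronic miRNAs at 100 CPM or more that rose or fell most among those called in each knockout, and the 3 most like each member by r of log2 CPM and by r of deviations from population means. The highest mean of any genotype decided the 100 CPM limit.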

Additional observations from a re-analysis of the deposited data

Results flagged for a closer look

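One SAFB library stood apart from the other 5 for mir-590. In SAFB guide 1 batch 1 the log2 CPM of mir-590 was 6.72, while the others lay between 4.84 and 5.46, so the gap to the nearest was 0.669 of the whole range, past Dixon's limit for 6 samples. Of 18 groups of values examined this way, 1 was past the limit, and chance gives about 1 in 20. mir-151 and mir-342 also had their highest SAFB level in this library, without passing the limit, at 0.336 and 0.187 of the range. The next largest gap of the 18 groups was that of mir-151 in control, for guide 2 batch 3, at 0.623 beside the limit of 0.625.

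The effect of the ERH knockout exceeded that of the SAFB knockout for all 3 miRNAs by the direct edgeR test. The log2 difference was 1.25 for mir-151, 1.22 for mir-342 and 1.31 for mir-590. Without SAFB guide 1 batch 1 the differences were 1.37, 1.39 and 1.70.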

How the results depend on the processing

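The difference between ERH and SAFB kept its direction and its call by edgeR or DESeq2 under all 32 alternatives for each member, at 1.11 to 1.78 for mir-151, 1.02 to 1.79 for mir-342 and 0.96 to 1.75 for mir-590, with highest adjusted p-values of 0.0065, 0.0062 and 0.025. With the replicate block, which pairs libraries by batch, it was 1.29, 1.26 and 1.35, and the block changed no call. The total-count and spike-in scalings move the median of all tested miRNAs in this contrast to 0.31 and 0.57, and give the members 1.52, 1.5 and 1.55, and 1.78, 1.79 and 1.75. The knockout values against control moved by less than 1 SD (log2 CPM, pooled over the control and knockout libraries) under 31 alternatives, to 2.97 to 3.44, 3.04 to 3.53 and 2.89 to 3.76 in SAFB and to 4.25 to 4.75, 4.32 to 4.83 and 4.23 to 5.03 in ERH; spike-in scaling puts the median of all tested at -0.23 in SAFB and 0.23 in ERH, and total counts put it at 0.24 in ERH.

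None of the 9 guide differences was called under TMM scaling. Under spike-in scaling 4 turned sign: control mir-151 0.34 and mir-342 0.28, ERH mir-151 0.30 and mir-590 0.34. That scaling puts the median of all tested at 0.63 in the control and in the ERH guide contrast. ERH mir-342 then passed, at 0.94 (edgeR adjusted p = 0.029). Leaving out 1 library gave -0.87 to 0.21 for control mir-151, positive without guide 2 batch 3, and -0.53 to 0.14 for SAFB mir-342, positive without guide 1 batch 1 or guide 2 batch 3; for SAFB mir-590 it gave -1.10 to -0.011, nearest 0 without guide 1 batch 1. The ratio of mir-342 to mir-151 ran from -0.14 to 0.070 with 1 library left out, and was 0.26 without ERH guide 1 and -0.30 without ERH guide 2. The ratio of mir-590 to mir-342 was -0.086 without ERH guide 1 and 0.50 without ERH guide 2. With 1 library left out it ran from 0.067 (without SAFB guide 2 batch 2) to 0.37 (without ERH guide 2 batch 2), and that of mir-590 to mir-151 from 0.032 (without SAFB guide 1 batch 2) to 0.34 (without SAFB guide 1 batch 1). No ratio passed the exact permutation test under any alternative.

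The scalings of the other named miRNAs, and the spread of the members with 1 library left out, were compared after seeing the data. For the other solitary intronic miRNAs, calls higher in SAFB numbered 14 under spike-in scaling and 8 when a mean count of 100 or more was required, where fewer are tested. Calls lower in SAFB numbered 9 to 14 with 1 library left out, lowest without control guide 1 batch 2, and 8, 7 and 4 without control guide 1, SAFB guide 1 and SAFB guide 2. Calls higher in ERH numbered 36 by total counts and 13 with the mean filter, and calls lower in ERH 4 by total counts, 1 by spike-ins and 7 with the mean filter. Beyond these, the causes were not tested. The control counts of the members, 4 to 30 reads a library, limit the precision of every fold over control.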

Other observations

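Likeness in the deviations from population means, which takes out the genotype and guide steps, named 2 of the same 3 partners as the levels for mir-151 and for mir-342, and 3 other partners for mir-590. For mir-151 they were mir-148a (r = 0.761), mir-1983 (0.753) and mir-196b (0.674), and for mir-342 mir-182 (0.868), mir-339 (0.781) and mir-196a (0.763), over 18 libraries and 122 miRNAs. For mir-590 they were mir-3535 (0.688), let-7e (0.481) and mir-125a (0.471), so no miRNA followed mir-590 from library to library as closely as mir-182 followed mir-342. These values are descriptions.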
